A study of Mus musculus with 12 samples.

Results

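The 10 genes described here carry or control steroid production by Leydig cells, the androgen-making cells between the tubules of the testis. They are Scarb1, Star, Cyp11a1, Fdx1, Cyp17a1, Hsd3b1, Hsd17b3, Lhcgr, Nr5a1 and Insl3. They were matched by gene symbol, and all 10 of 10 were found among the 54532 genes of the count table and of the FPKM table. RNA was sequenced in bulk from sorted testis cells of newborn mice carrying the Tg(Pou5f1-EGFP)2Mnn transgene, in which regulatory sequence of Pou5f1, a pluripotency and germ cell gene, drives green fluorescent protein. Animals received saline or dexamethasone (dex), a drug that activates the glucocorticoid receptor (GR). The dose was 10 μg per g of body weight, given to the dam at E17.5 and E18.5 (days of embryonic development) and to the pup on postnatal day 0. Testes were collected on postnatal day 1 and sorted into GFP+ germ cells and GFP- somatic cells, which gives 4 groups of 3 libraries: saline somatic, dex somatic, saline germ and dex germ. Testes of at least 2 separately dosed litters were pooled for each replicate, and the labels give the transgenic strain for all 4 groups.

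Steroid synthesis starts when Scarb1, a lipoprotein receptor, brings cholesterol into the cell and Star moves it to the inner mitochondrial membrane. There Cyp11a1 cuts the side chain, with electrons from the ferredoxin Fdx1, to give pregnenolone, which Hsd3b1 and Cyp17a1 turn into androstenedione. Hsd17b3 makes testosterone from androstenedione. In the fetal mouse testis this last step is known to take place in Sertoli cells, the supporting cells of the tubule, and not in fetal Leydig cells. Lhcgr is the receptor for luteinizing hormone, which raises Star and the enzymes through cAMP. Nr5a1 encodes SF-1, a nuclear receptor that drives the steroidogenic genes and is also made by Sertoli cells. Insl3 is a peptide hormone of Leydig cells that acts in testis descent.

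The somatic libraries held every GFP- cell of the testis, without selection for Leydig cells. Expression is given as CPM, counts divided by the scaled size of the library, and a test was called at a Benjamini-Hochberg adjusted p of 0.05 or less with the quasi-likelihood test of edgeR across all genes. Library totals lay between 18459692 and 25178477 counts, so that a count of 0 allows up to 3 counts, or 0.114 to 0.165 CPM. The sort separated the populations: the germ cell gene Ddx4 was at 611 ± 26.5 CPM in saline germ and 1.35 ± 0.340 CPM in saline somatic libraries (SD, n = 3), and the Sertoli gene Amh at 12.3 ± 2.06 and 1742 ± 128 CPM. Klf9, a direct target of GR, rose by 1.27 ± 0.23 on the log2 scale in somatic cells (SE, n = 3 and 3, edgeR adjusted p = 0.00404) and by 1.08 in germ cells (edgeR adjusted p = 0.00140). Klf9 lost its call in somatic cells under 1 of 15 other settings and in germ cells under 2 of 15.

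In saline somatic cells all 10 genes were detected in every library, at levels that spanned a wide range. Levels between genes are compared as FPKM, which corrects for gene length. Hsd17b3 was highest, at 214 ± 28.3 FPKM (SD, n = 3), followed by Nr5a1 at 92.9 ± 3.04 and Scarb1 at 30.8 ± 2.40 FPKM. Hsd17b3 lay above 99.4% and Nr5a1 above 98.1% of protein-coding genes in these libraries. Hsd3b1 was at 23.1 ± 6.74, Insl3 at 19.7 ± 4.32, Cyp17a1 at 17.1 ± 5.70 and Fdx1 at 11.6 ± 1.76 FPKM. The level of Insl3, and so its place in this order, is uncertain because the gene lies inside Jak3. Star was at 8.08 ± 0.878, Cyp11a1 at 5.05 ± 2.26 and Lhcgr, the lowest, at 1.18 ± 0.424 FPKM. From Scarb1 down to Fdx1 the ranges of neighbours in this order overlapped over the 3 libraries, as did those of Star and Cyp11a1. Within each library, however, Scarb1 was above Hsd3b1, Insl3 above Cyp17a1, Cyp17a1 above Fdx1 and Star above Cyp11a1, and these differences between genes were not tested. Hsd17b3 and Nr5a1, the genes also known from Sertoli cells, thus stood above the Leydig cell genes. A summed list of 10 Sertoli markers reached 6093 to 6740 CPM in the saline somatic libraries, against 119 to 199 CPM for the 6 Leydig markers other than Hsd17b3.

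Of 6 genes that mark the adrenal cortex, another steroid-producing tissue, 5 were at or below 1 CPM in saline somatic libraries. Cyp11b2 and Cyp11b1 had 0 counts in all 3, Mc2r, the ACTH receptor, was at 0.193 ± 0.263 CPM, and Mrap is described with the signalling genes. Cyp21a1 was at 0.356 ± 0.143 CPM in saline and at 1.18 ± 0.420 CPM in dex, a difference that did not pass the test (edgeR adjusted p = 0.237). The sixth gene, Akr1b7, an aldose reductase also known from the vas deferens, was at 15.7 ± 1.00 CPM, or 11.7 FPKM. The paralogs Hsd3b6, the form of adult Leydig cells, and Hsd3b2 each had 5 counts in 1 saline somatic library and 0 in the others, with means of 0.0794 ± 0.138 and 0.0821 ± 0.142 CPM. The electron donors were abundant: Fdxr, which reduces Fdx1, was at 307 ± 15.6 CPM and Por, which serves Cyp17a1, at 71.8 ± 8.65 CPM. Gata4, a factor of both somatic lineages, was at 655 ± 57.9 CPM, and Nr0b1, a repressor of SF-1, at 33.6 ± 6.35 CPM. Srd5a1, which makes dihydrotestosterone, was at 7.18 ± 1.68 CPM.

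**Figure D1:**
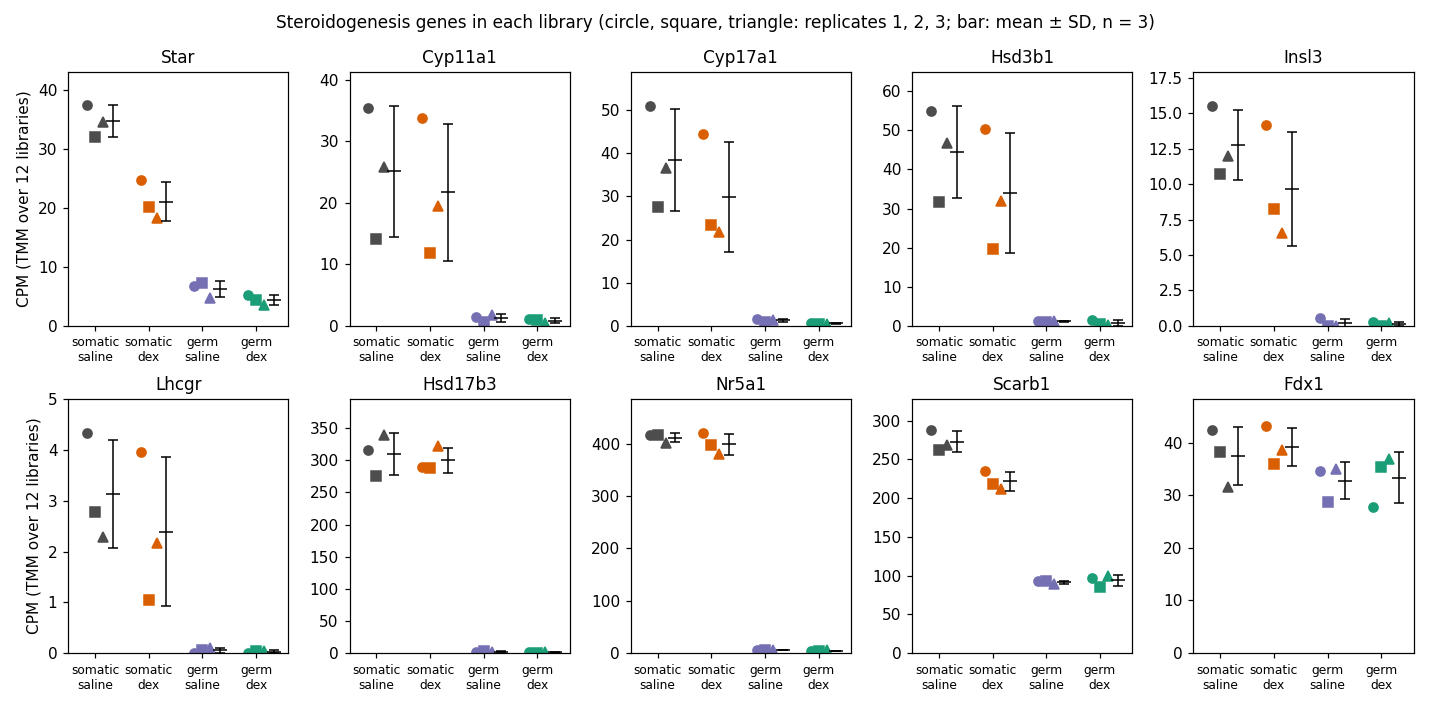
Expression in CPM (vertical axes, starting at 0, a scale for each gene) of the 10 genes in the 12 libraries. Circles, squares and triangles are replicates 1, 2 and 3 of each group and the bar is mean ± SD (n = 3). The 3 dex somatic libraries lie below the 3 saline somatic libraries for Star and Scarb1, and the 4 groups of Fdx1 overlap.

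Somatic libraries of dex and saline animals were compared to see whether the steroidogenic genes responded to the GR agonist. Star fell. It was at 37.4, 32.0 and 34.5 CPM in saline somatic replicates 1, 2 and 3 and at 24.7, 20.2 and 18.2 CPM in the dex libraries. Every dex library was below every saline library. The edgeR fit put the dex level at 0.620 times the saline level. This is a fall of 0.69 ± 0.14 on the log2 scale (SE, n = 3 and 3, edgeR adjusted p = 0.0102). Star was the 1 of 10 genes called, while 3.91% of the 16766 genes tested were called in either direction and 1.17% as lower. Of these 655 calls 70.1% were higher with dex, a share that was 53.5% with scaling to library totals. The Star call did not stand on every setting. Its adjusted p was 0.000571 with DESeq2, and 0.0712 and 0.0735 with limma on log2(FPKM + 0.1) and log2(FPKM + 1). It rose to 0.0527 and 0.0669 when dex replicates 2 and 3 were left out in turn, and to 0.0656 and 0.0528 for saline replicates 1 and 3. The fall itself stayed between 0.59 and 0.81 on the log2 scale under all 15 other settings.

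Scarb1, the receptor one step before Star, was at 288, 262 and 269 CPM in saline somatic libraries and at 235, 218 and 212 CPM in dex somatic libraries. Its groups did not overlap either, as for 12.3% of all genes in the lower direction, and its log2 fold change was -0.27 ± 0.083 (SE, n = 3 and 3, edgeR adjusted p = 0.0971). Scarb1 thus missed the threshold here and passed it under 4 of 15 other settings, with an adjusted p of 0.0400 by DESeq2, 0.0358 with library totals, 0.0483 with no filter on low counts and 0.0380 without saline replicate 2.

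None of the other 8 genes was called in the somatic comparison, and for these 8 the dex and saline libraries overlapped. The genes known from Leydig cells had negative log2 fold changes with wide errors: -0.38 ± 0.26 for Insl3, -0.37 ± 0.26 for Hsd3b1, -0.37 ± 0.48 for Lhcgr, -0.34 ± 0.25 for Cyp17a1 and -0.19 ± 0.33 for Cyp11a1 (SE, n = 3 and 3, edgeR adjusted p from 0.527 to 0.841). These errors leave room for changes as large as that of Star. Hsd17b3 and Nr5a1 were measured with small errors, and their log2 fold changes were -0.017 ± 0.098 and -0.012 ± 0.076 (SE). Fdx1 was at 0.099 ± 0.13 (SE). Over the 10 genes the median log2 fold change was -0.30 and 9 of 10 values were negative, beside a median of -0.0066 over all genes tested. The signs of Cyp11a1, Hsd17b3 and Nr5a1 turned when single libraries were left out.

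**Figure D2:**
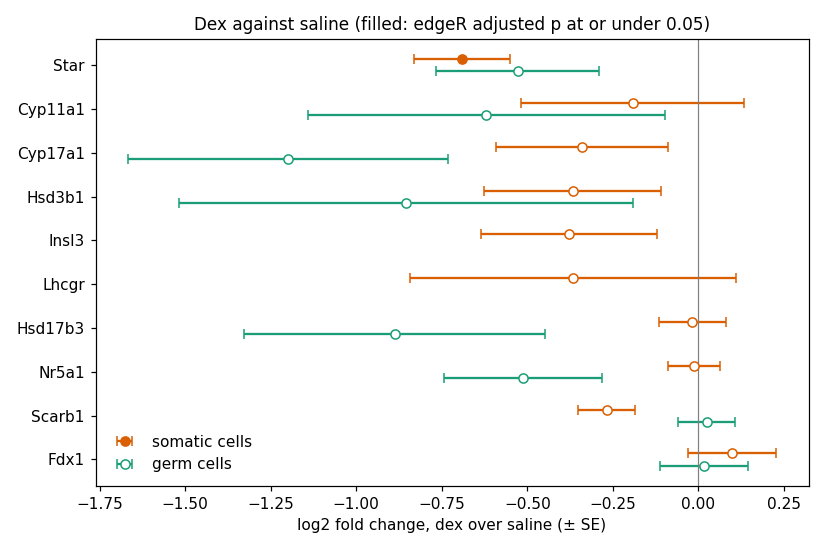
Log2 fold change of dex over saline (horizontal axis, ± SE, n = 3 and 3) for the 10 genes in somatic cells (orange) and germ cells (green). Star in somatic cells, at -0.69, is the filled symbol, the call at an edgeR adjusted p at or under 0.05, and open symbols were not called. Insl3 and Lhcgr have no germ value because they did not pass the filter on low counts there.

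Markers of other somatic cells moved with treatment in the same libraries. The summed level of 6 stromal markers was 1549 to 2131 CPM in saline and 2325 to 2755 CPM in dex somatic libraries, with Pdgfra and Dcn called higher. That of 6 peritubular and smooth muscle markers was 1141 to 1269 and 1460 to 1619 CPM, with Acta2 and Des called higher. Of 6 macrophage markers Csf1r, Lyz2 and Mrc1 were called lower, and their sum was 46.7 to 78.9 CPM in saline and 21.1 to 29.6 CPM in dex. Of 6 erythroid markers Hbb-bs and Hbb-bt were called lower, with sums of 248 to 389 and 82.7 to 292 CPM, and of 6 endothelial markers Tek was called lower, with sums of 244 to 282 and 245 to 316 CPM. None of the 10 Sertoli markers was called, and their sum overlapped between groups, at 5993 to 6775 CPM in dex. The 6 Leydig markers other than Hsd17b3 summed to 84.3 to 172 CPM in dex. Over these lists and the somatic libraries, 1 marker, the erythroid Hba-a2, was at 0 in all 3 dex libraries, and none was at 0 in all 3 saline libraries. The part of these cell types in the Star result was not tested, and in bulk RNA fewer cells of a type and less RNA per cell cannot be told apart.

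Most Leydig cell genes varied from library to library more than a typical gene. Cyp11a1 was at 35.4, 14.1 and 25.9 CPM in the saline somatic libraries and at 33.8, 11.9 and 19.5 CPM in the dex libraries. Cyp17a1 was at 51.0, 27.5 and 36.6 CPM in saline and at 44.5, 23.3 and 21.8 CPM in dex. Hsd3b1 was at 54.9, 31.7 and 46.8 CPM in saline and at 50.3, 19.6 and 31.9 CPM in dex. For all 3 genes replicate 1 was the highest library of its group in both treatments. Insl3 was at 15.5, 10.7 and 12 CPM in saline and at 14.2, 8.21 and 6.58 CPM in dex, and Lhcgr at 4.33, 2.77 and 2.29 CPM and at 3.95, 1.04 and 2.18 CPM. Here too replicate 1 was highest. The coefficient of variation of these 5 genes was 19.4% to 42.5% among saline and 41.4% to 61.5% among dex somatic libraries. Over genes with a mean of at least 5 CPM the median was 9.86% and 8.91%, and the 90th percentile 21.4% and 21.3%. Insl3 in saline, at 19.4%, was under that percentile. Lhcgr, which gave the 61.5%, had means of 3.13 and 2.39 CPM, below the level of these genes.

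The other members were steadier. The coefficient of variation of Nr5a1 was 2.09% and 5.11%, that of Scarb1 4.94% and 5.56%, that of Star 7.88% and 15.6% and that of Hsd17b3 10.4% and 6.58%, in saline and dex somatic libraries. Over the 6 somatic libraries, Pearson's r of log2 CPM among Cyp11a1, Cyp17a1, Hsd3b1 and Insl3 was 0.72 to 0.96 in the 6 pairs, and r of Star with these 4 was 0.45 to 0.81. On deviations from the group means, which leave out the treatment difference, these ranges were 0.72 to 0.98 and 0.72 to 0.99. The r of Star with Scarb1 was 0.99, and 0.96 on deviations. The 6 points share the scaling of each library and, without centring, the treatment contrast, and r is given as a description. Cyp11a1 and Hsd3b1 were lowest in saline 2 and dex 2. These libraries were the highest of their groups in the stromal sum (2131 and 2755 CPM) and the erythroid sum (389 and 292 CPM). They were also highest in the endothelial sum (282 and 316 CPM) and lowest in the Sertoli sum (6093 and 5993 CPM). The peritubular and smooth muscle sum was highest in saline 2 and dex 1, and the macrophage sum in saline 3 and dex 1. Cyp17a1 and Insl3 were lowest in saline 2 and dex 3, and Lhcgr in saline 3 and dex 2. The part of these cells in the variation was not tested.

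**Figure D3:**
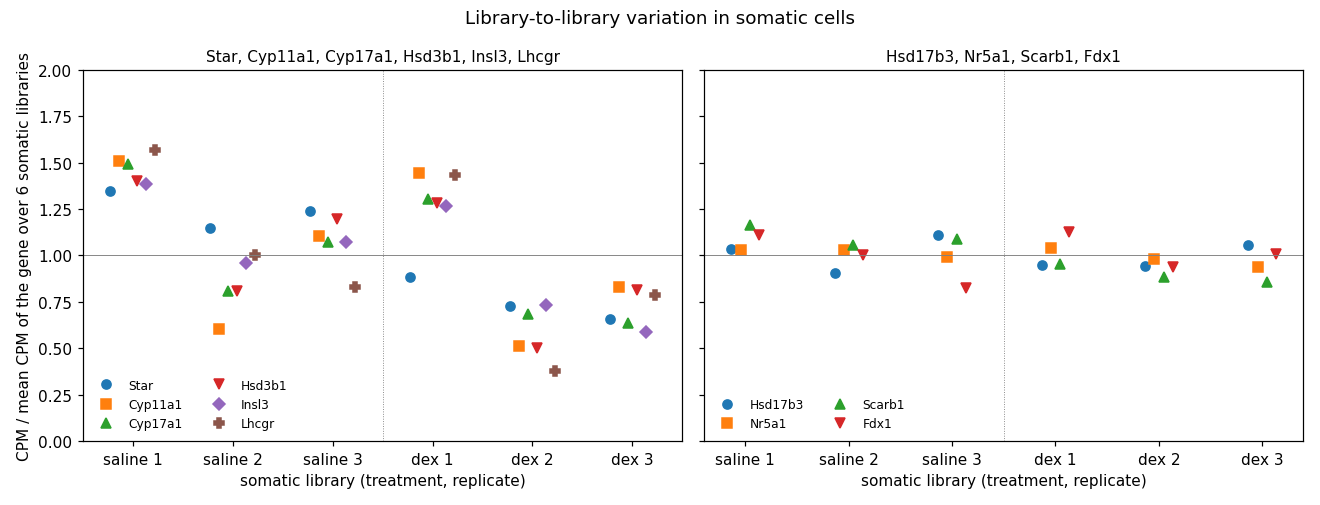
CPM of each gene divided by its mean over the 6 somatic libraries (vertical axis, from 0), for each library (horizontal axis: saline 1 to 3, dex 1 to 3). Left are the Leydig cell genes and right Hsd17b3, Nr5a1, Scarb1 and Fdx1. Replicate 1 is high for Cyp11a1, Cyp17a1, Hsd3b1, Insl3 and Lhcgr in both treatments, while Star is above its mean in all saline and below it in all dex libraries.

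Against this shared variation, Star was set over the geometric mean CPM of Cyp11a1, Cyp17a1, Hsd3b1 and Insl3, a ratio chosen after the values were seen. It was 1.06, 1.68 and 1.28 in saline and 0.766, 1.39 and 1.06 in dex somatic libraries. The groups overlapped, and the mean difference of the log2 ratio, dex minus saline, was -0.34. The geometric mean of the 4 genes itself was 35.2, 19.1 and 27.0 CPM in saline and 32.2, 14.6 and 17.3 CPM in dex. Its mean log2 difference was -0.39, and the groups overlapped. Whether Star fell beyond these 4 genes was not tested.

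The genes whose pattern was most like the mean standardised level of Star, Cyp11a1, Cyp17a1, Hsd3b1 and Insl3 over the 6 somatic libraries were Mllt11 (r = 0.993), Rasgef1b, Trmt13, Zfp655, 1600014C10Rik and Pla2g5 (r = 0.967), of 11463 protein-coding genes compared. Each of the 5 genes had an r of 0.69 to 0.96 with the other 4. Over all 12 libraries, where the difference between germ and somatic cells dominates, they were Zbed3 (r = 0.994), BC017158, Akr1b10, Rlim, Magt1 and Spaca6 (r = 0.990), of 11474. The highest of so many r values over so few libraries are a description only.

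Promoter sequence is shown for Hsd3b1, Insl3 and Lhcgr, the Leydig cell genes whose window held the core of an SF-1 site, as the 200 bases from 250 to 51 bases before the RefSeq start (GRCm38.p6, the build of the counts). Capitals mark the letters TCAAGG or CCAAGG on either strand, the letters that SF-1 is known to bind. Hsd3b1 lies on the minus strand and the stretch is chr3:98859845-98860044, Insl3 on the plus strand with chr8:71689002-71689201, and Lhcgr on the minus strand with chr17:88792065-88792264.
Hsd3b1: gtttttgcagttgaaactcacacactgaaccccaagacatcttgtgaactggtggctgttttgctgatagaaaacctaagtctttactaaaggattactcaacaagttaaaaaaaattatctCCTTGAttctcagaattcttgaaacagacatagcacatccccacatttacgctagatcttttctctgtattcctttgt
Insl3: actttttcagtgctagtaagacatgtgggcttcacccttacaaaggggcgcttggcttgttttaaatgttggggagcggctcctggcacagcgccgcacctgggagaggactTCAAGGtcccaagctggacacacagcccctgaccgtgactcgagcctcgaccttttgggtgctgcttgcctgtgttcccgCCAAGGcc
Lhcgr: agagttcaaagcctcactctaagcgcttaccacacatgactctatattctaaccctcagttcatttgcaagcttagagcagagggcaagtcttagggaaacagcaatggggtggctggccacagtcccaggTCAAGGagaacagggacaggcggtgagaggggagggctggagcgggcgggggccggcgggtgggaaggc

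The core starts 128 bases before the start of Hsd3b1, 138 and 58 bases before that of Insl3 and 119 bases before that of Lhcgr. The promoter table held 7 windows for 6 of the 10 genes, and 4 of these 7 had the core within 250 bases before the start (Hsd3b1, Insl3, Lhcgr and Fdx1), as did 28.3% of 32851 mouse promoters. Cyp11a1, which varied with these genes, had 2 windows and neither held the core, nor did that of Hsd17b3. The letters AGAACA, the core of a GR binding site, were in 1 of the 7 windows, that of Lhcgr, where they directly follow the SF-1 core at 113 bases before the start, and in 16.1% of all promoters. A match of so few letters is a description of the window and not a binding site.

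In germ cells the same question was asked at the levels measured there. No member was called. The count of 0 is for 8 genes tested, since Insl3 and Lhcgr did not pass the filter on low counts, beside 1.25% of 18550 genes called. DESeq2 also called 0. With edgeR 3 of the 8 had an unadjusted p under 0.05, beside 2736 of the 18550 genes tested. Cyp17a1 was at 1.65, 0.907 and 1.27 CPM in saline germ and at 0.658, 0.494 and 0.526 CPM in dex germ libraries. These groups did not overlap, as for 9.30% of all genes in the lower direction, and the log2 fold change was -1.20 ± 0.47 (SE, n = 3 and 3, edgeR adjusted p = 0.233). Nr5a1 was at 5.75, 5.02 and 6.14 CPM in saline and at 3.90, 3.19 and 4.87 CPM in dex, again without overlap, with a log2 fold change of -0.51 ± 0.23 (SE, edgeR adjusted p = 0.317).

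Star overlapped between the germ groups, at 6.82, 7.31 and 4.73 CPM in saline and 5.17, 4.40 and 3.58 CPM in dex, with a log2 fold change of -0.53 ± 0.24 (SE, n = 3 and 3, edgeR adjusted p = 0.317). Hsd17b3 was at -0.89 ± 0.44, Hsd3b1 at -0.86 ± 0.66 and Cyp11a1 at -0.62 ± 0.52, while Scarb1 and Fdx1 were at 0.024 ± 0.083 and 0.015 ± 0.13 on the same log2 scale (SE). The median over the 8 genes was -0.57, beside -0.0027 over all genes tested. Insl3 had 12, 0 and 0 counts in saline germ and 6, 0 and 4 in dex germ libraries, and Lhcgr had at most 2 counts in any germ library. Summed somatic markers went both ways in germ libraries. The 10 Sertoli markers summed to 63.6 to 84.9 CPM in saline and 44.9 to 55.3 CPM in dex without overlap. Of 9 tested 1, Inha, was called lower. The erythroid sum was lower too, at 7.70 to 9.22 and 4.44 to 7.06 CPM. The peritubular and smooth muscle sum was higher with dex, at 14.9 to 21.8 and 25.4 to 29.7 CPM. So was the macrophage sum, at 9.45 to 13.3 and 14.9 to 17.4 CPM. The stromal and endothelial sums overlapped. The 6 Leydig markers other than Hsd17b3 summed to 9.07 to 11.8 CPM in saline and 4.83 to 8.79 CPM in dex without overlap. With Hsd17b3 added, the sums were 10.7 to 14 and 5.69 to 11 CPM and overlapped. The part of somatic RNA in the germ values was not tested.

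Germ and somatic libraries of saline animals were compared to see where the genes are expressed. Of the 10 genes 9 were called lower in germ cells, beside 36.7% of 18870 genes called lower and 76.5% called in either direction. Scaling to library totals moved the median log2 difference of all genes from 0.072 to 0.21. Hsd17b3 had a log2 difference of -7.14 ± 0.18 (SE, n = 3 and 3, edgeR adjusted p = 9.5e-12), and its germ mean was 0.745% of its somatic mean. The germ mean as a share of the somatic mean was 1.37% for Nr5a1, 2.72% for Hsd3b1, 3.32% for Cyp17a1 and 5.0% for Cyp11a1. For Insl3 the share was 1.40%, which rests on 12 counts in saline germ replicate 1 and 0 in the other germ libraries of that group, against 815 in the saline somatic libraries. Per unit of depth this is a ratio of 65.1 with a 95% interval of 37.1 to 126. Lhcgr had 3 counts in the saline germ libraries and 200 in the saline somatic libraries, a ratio of 63.9 with an interval of 21.5 to 312. These intervals cover counting error only. That of Insl3 leaves out its overlap with Jak3, and the order of Insl3, Lhcgr and Hsd17b3 was not tested. The median share differed between lists of somatic markers. The median Sertoli marker was at 1.16%, the median stromal marker at 1.12% and the median erythroid marker at 1.40%. The median was higher for macrophage markers, at 7.66%, for peritubular and smooth muscle markers, at 10.98%, and for endothelial markers, at 27.9%.

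Star, Scarb1 and Fdx1 were present in germ libraries at larger shares of their somatic level. Star stood at 18.1%, with a log2 difference of -2.53 ± 0.18 (SE, n = 3 and 3, edgeR adjusted p = 8.7e-08). Scarb1 stood at 33.6%, at 92.9, 92.6 and 89.3 CPM in the saline germ libraries, with a log2 difference of -1.64 ± 0.079 (SE, edgeR adjusted p = 2.2e-09). Fdx1 was at 34.6, 28.7 and 35.1 CPM in saline germ and 42.5, 38.3 and 31.6 CPM in saline somatic libraries. These groups overlapped, and the log2 difference of -0.26 ± 0.14 did not pass the test (SE, edgeR adjusted p = 0.111), although it was called without somatic saline replicate 3. Fdx1 also serves iron-sulfur cluster and other mitochondrial enzymes outside steroid synthesis. On the FPKM scale Scarb1 was at 10.7 ± 0.178 and Fdx1 at 10.5 ± 1.17 in saline germ cells, with Star at 1.52 ± 0.325 and the other 7 genes at 1.65 or less (SD, n = 3).

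**Figure D4:**
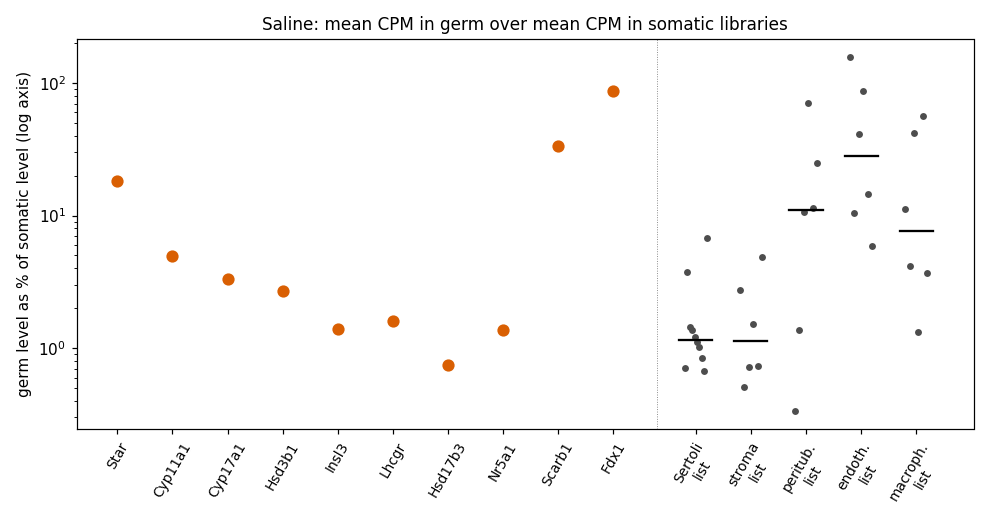
Mean CPM in saline germ libraries as a percentage of the mean in saline somatic libraries (vertical log axis), for each of the 10 genes (orange) and for the markers of 5 other cell types that were tested (grey dots, with the median as a bar). Hsd17b3 stands at 0.745%, Star stands at 18.1%, Scarb1 at 33.6% and Fdx1 at 87.5%.

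The difference between the dex effects of germ and somatic cells was tested directly over all 12 libraries. It was called for 0 of the 10 genes with edgeR, beside 0.827% of 20551 genes. An unadjusted p under 0.05 was found for 3 of 10, beside 2730 of the 20551 genes. DESeq2 called 0 as well. Over all genes 85 calls were higher in germ and 85 lower, which was 148 and 73 with scaling to library totals. The 3 genes were Scarb1, with a difference (germ minus somatic) of 0.33 ± 0.11 on the log2 scale, Nr5a1, with -0.48 ± 0.17, and Hsd17b3, with -0.85 ± 0.35 (SE, n = 3 in each of 4 groups, edgeR adjusted p = 0.207, 0.207 and 0.296). For Star the difference was 0.19 ± 0.27 (SE, edgeR adjusted p = 0.856). The fall of Star in somatic cells is thus not shown to differ from its value in germ cells.

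Lists of related genes were counted in the same fits. Of the other steroid enzymes and redox partners 3 of 18 tested were called in somatic cells, where 2.74% of all genes tested were called higher and 1.17% lower. The list median was 0.043. Hsd11b2, which inactivates corticosterone, rose from 39.9, 42.3 and 30.9 to 57.8, 60.5 and 52.0 CPM, by 0.63 ± 0.12 on the log2 scale (SE, edgeR adjusted p = 0.00828). Its adjusted p was 0.0505 with limma on log2(FPKM + 0.1) and 0.118 with all 12 libraries in 1 fit. Hsd17b11 rose too, and Hsd17b1, which forms estradiol from estrone, fell from 203, 189 and 214 to 148, 166 and 140 CPM, by 0.39 ± 0.092 (SE, edgeR adjusted p = 0.0265). Hsd17b1 was called under 8 of 15 other settings, and its adjusted p was 0.0949 to 0.158 when dex replicate 1 or 3 or saline replicate 1 or 3 was left out. Of 17 cholesterol uptake and transport genes Abcg1, which exports cholesterol, was the 1 called: it fell from 27.3, 28.6 and 31.4 to 13, 17.1 and 20.2 CPM, by 0.76 ± 0.16 (SE, edgeR adjusted p = 0.0124). Abcg1 lost its call under 3 of 15 other settings, at 0.0789 without saline replicate 3 and up to 0.0824 with limma. The list median was -0.043, and 7 of 17 values were positive.

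Of the LH and cAMP signalling genes 4 of 20 tested were called in somatic cells, 3 higher and 1 lower, with a median of -0.046. Mrap, the partner that the ACTH receptor needs at the cell surface, rose from 0.492, 0.606 and 0.619 to 3.62, 3.71 and 3.46 CPM, by 2.67 ± 0.46 on the log2 scale (SE, n = 3 and 3, edgeR adjusted p = 0.00325). Its receptor Mc2r stayed near 0, at 0.193 ± 0.263 CPM in saline and 0.242 ± 0.212 CPM in dex. Pde4a, which breaks down cAMP, rose from 4.53, 5.15 and 4.72 to 9.39, 10.1 and 9.74 CPM, by 1.06 ± 0.21 (SE, edgeR adjusted p = 0.00982). Pde4a lost its call with both limma fits, with an adjusted p of 0.0846 on log2(FPKM + 0.1) and 0.0558 on log2(FPKM + 1), where its change was 0.49. Prlr rose and Prkar2b fell by smaller amounts. These 4 genes were picked by their call. Over all genes tested 2.74% were called higher and 1.17% lower.

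Of 29 transcription factors and signals of the Leydig lineage 7 were called in somatic cells, 6 higher and 1 lower, with a median of 0.10. Cebpb, a transcription factor that responds to cAMP and glucocorticoids, rose from 40.5, 28.7 and 42.0 to 111, 82.1 and 76.5 CPM, by 1.30 ± 0.16 on the log2 scale (SE, n = 3 and 3, edgeR adjusted p = 0.000224). Dlk1, a membrane protein of fetal Leydig and stromal cells, rose from 2387, 2210 and 2307 to 3584, 4760 and 3953 CPM, by 0.87 ± 0.10 (SE, edgeR adjusted p = 0.000165). Vcam1 rose by 0.80, Maf by 0.61 and Inhba by 0.51, and Pdgfra rose as well. Vcam1 and Inhba each lost the call under 5 of 15 other settings, with an adjusted p of up to 0.201 and 0.142, both with all 12 libraries in 1 fit. Without saline replicate 1 the adjusted p was 0.0529 for Vcam1 and 0.0597 for Inhba, without saline replicate 3 it was 0.0602 for Inhba, and without dex replicate 2 it was 0.0564 for Vcam1. Esr1, the estrogen receptor, fell from 38.8, 37.0 and 33.4 to 24.8, 22.8 and 18.4 CPM, by 0.69 ± 0.13 (SE, edgeR adjusted p = 0.00745). Esr1 lost its call under 3 of 15 other settings, at 0.0502 without saline replicate 1 and up to 0.154 with limma. Nr0b1, Gata4 and Thbs2, a matrix gene of fetal Leydig cells, did not pass the test, at 0.10 ± 0.14, -0.12 ± 0.076 and 0.33 ± 0.10 (SE). Several of these genes are also known from stroma, whose markers were higher in the same libraries, and the part of stromal cells was not tested.

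In germ cells the same lists held 3 calls, where 0.739% of all genes tested were called higher and 0.507% lower. Adcy6, an adenylyl cyclase, rose from 22.9, 22.6 and 24.7 to 43.2, 50.8 and 42.6 CPM, by 0.95 ± 0.11 on the log2 scale (SE, n = 3 and 3, edgeR adjusted p = 0.000837), 1 of 20 signalling genes tested. Adcy6 lost its call under 2 of 15 other settings, with an adjusted p of up to 0.0580. Of 28 lineage genes tested Cited2 fell by 0.57 ± 0.12 (SE, edgeR adjusted p = 0.0296) and Ptch1, the Hedgehog receptor, rose by 0.35 ± 0.075 (SE, edgeR adjusted p = 0.0351). Cited2 was also called under 8 of 15 other settings, with an adjusted p of 0.0587 to 0.181 without dex replicate 1 or 3 or saline replicate 1 or 2. Ptch1 was called under 6 of 15, with 0.0561 to 0.199 without any single library other than dex replicate 2. None of 17 steroid enzymes and none of 17 cholesterol genes tested was called with edgeR. In these lists 3 and 6 genes had an unadjusted p under 0.05, beside 2736 of all 18550 genes tested.

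The annotation bears on single members. Insl3 (ENSMUSG00000079019, chromosome 8, 71689214 to 71690575, plus strand) lies inside Jak3 in GENCODE M21, and 60.9% of its 64-base words also occur in Jak3 transcripts, so its counts are uncertain where reads of both genes were split. Hsd3b1 (chromosome 3, 98852194 to 98859794, minus strand) shares 2.49% of its words with paralogs and Cyp11a1 (chromosome 9, 58006411 to 58027023, plus strand) 1.71% with an overlapping gene. Star (ENSMUSG00000031574, chromosome 8, 25806555 to 25815982, plus strand) shares none, nor do Cyp17a1, Hsd17b3, Lhcgr, Nr5a1, Scarb1 and Fdx1.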

How the data were processed

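Sorted germ and somatic cells of newborn mouse testis were compared in 12 libraries, grouped by their labels. The authors selected mRNA on poly-dT beads, sequenced paired ends, aligned reads to mm10 (GRCm38) with HISAT2 2.0.5 and counted reads per gene with featureCounts 1.5.0-p3. The deposited count table holds raw counts. The deposited FPKM values are these counts divided by gene length and depth. The authors' result tables hold their DESeq2 (1.20.0) fold changes and p-values and were not used. The annotation release and the strand setting are not given in the sources used here. Where nothing separates replicates but their pools, p-values measure the spread between these pools.

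Each comparison was fitted on its 6 libraries with the quasi-likelihood test of edgeR 4.0.16 (R 4.3.3), TMM scaling and filterByExpr at a minimum count of 10, with Benjamini-Hochberg adjustment over all genes tested. The difference between populations was a contrast over 12 libraries. The SE is the log2 fold change over the square root of F. CPM used TMM over 12 libraries, and log2 CPM a prior count of 2. Alternatives were DESeq2 1.42.0, its size factors, library totals, other filters on low counts, limma 3.58.1 on log2(FPKM + 0.1) and log2(FPKM + 1), a replicate block, all 12 libraries in 1 fit, and each library left out. Scripts were tested on simulated data.

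The members and lists were chosen with earlier results of these data known, and the promoter motifs with the sequences in view. The text names the 10 genes in every comparison, called list genes up to the 10 largest changes in each dex comparison, a set of related enzymes, factors and markers, and the 6 genes most like the Leydig genes by Pearson's r. The names Akr1b7, Hsd17b11, Prlr, Prkar2b and Pdgfra, and the called cell type markers, were added after their values were seen. Of 54532 gene identifiers 54409 were found in GENCODE M21, which served for words of 64 bases shared between transcripts. The listed enzyme H6pdh was not found under that symbol.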

Additional observations from a re-analysis of the deposited data

Results flagged for a closer look

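None of the 10 steroidogenesis genes met a criterion. Groups of 3 libraries are too small to single out a library. For 6 of the other genes named, the dex effect differed between germ and somatic cells in the contrast over 12 libraries (log2, germ minus somatic, edgeR). For Adcy6 the difference was 0.77 (adjusted p = 0.0149), and it was called under 20 of 20 other settings. Its log2 fold change was 0.95 in germ and 0.22 in somatic cells. For Dlk1 it was -0.79 (adjusted p = 0.0306), called under 11 of 20 other settings, with a log2 fold change of 0.87 in somatic and 0.038 in germ cells. For Hsd17b11, a dehydrogenase of lipid droplets, it was -0.69 (adjusted p = 0.0490), called under 7 of 20, with 0.43 in somatic and -0.29 in germ cells. For Akr1cl, an aldo-keto reductase at 500 ± 36.0 CPM in saline somatic and 4.06 CPM in saline germ libraries (mean of 3, SD), it was -1.15 (adjusted p = 0.0330), called under 9 of 20, while the Sertoli markers in germ libraries were lower with dex too. The remaining genes are the glucocorticoid targets Per1, at -0.60 (adjusted p = 0.0282), called under 9 of 20 other settings, and Zbtb16, at -4.11 (adjusted p = 1.5e-05), called under 20 of 20. Zbtb16 rose from 1.17 to 18.2 CPM in somatic cells and was at 349 and 307 CPM in saline and dex germ cells.
Leaving out single libraries moved the adjusted p of 4 of these genes past the threshold, each through libraries of more than 1 group: to 0.0613 to 0.0858 for Dlk1, 0.0534 to 0.0753 for Per1, 0.0574 to 0.107 for Akr1cl and 0.0562 to 0.117 for Hsd17b11.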

How the results depend on the processing

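With 3 libraries a group, adjusted p near the threshold moved easily, and the causes were not tested. The somatic dex comparison called 655 genes, and 1061 with no filter on low counts and 251 and 281 with limma on log2(FPKM + 0.1) and log2(FPKM + 1). Members called there were 1, with 2 by DESeq2, library totals and no filter, and 0 by both limma fits. Leaving out 1 library gave 354 to 547 genes and 0 to 2 members. In germ cells the 231 calls became 711 with DESeq2, 767 with no filter, 6 and 12 with limma and 142 with all 12 libraries in 1 fit, and 49 to 265 without 1 library, with 0 members in every setting. For germ against somatic cells, 9 members were called, 9 to 10 without 1 library, and 7 of 8 tested with at least 10 counts in every library, a filter that also left no germ dex value for Hsd3b1 and Cyp11a1. The 170 differences between populations became 648 with DESeq2, 706 with no filter (1 member, Hsd17b3, adjusted p = 0.0089), 262 with at least 10 counts and 57 with limma on log2(FPKM + 0.1), and 79 to 172 without 1 library.

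Some signs turned. With limma on log2(FPKM + 1) the difference between populations went from -0.41 to 0.058 for Cyp11a1, from -0.85 to 0.0047 for Cyp17a1 and from -0.49 to 0.081 for Hsd3b1. Without 1 library the somatic dex effect ranged from -0.65 to 0.16 for Cyp11a1, -0.12 to 0.066 for Hsd17b3 and -0.047 to 0.029 for Nr5a1, and the germ dex effect from -0.016 to 0.088 for Scarb1 and -0.069 to 0.13 for Fdx1. The difference ranged from -0.76 to 0.048 for Cyp11a1, -0.18 to 0.064 for Fdx1 and -0.72 to 5.06 for Insl3, which had 0 counts in 3 of 6 germ libraries. Of 1027 values of single genes, 896 kept direction and side of the threshold, 98 lost a call, 6 gained one and 27 turned sign.

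The replicate numbers were taken as names. In the pairing check, deviations of same-numbered dex and saline libraries correlated at -0.0054 to 0.022 in somatic and -0.21 to 0.12 in germ cells. Those of germ and somatic saline libraries correlated at 0.085 to 0.15, where each library correlated best with its own number. Same-numbered germ and somatic dex libraries correlated at -0.028 to 0.0061, and there the best match was not always the same number. A replicate block gave 669 calls in somatic cells, 65 in germ cells, 14157 for germ against somatic cells and 90 for the difference between populations, and left the number of members called at 1, 0, 9 and 0.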
